A study of Mus musculus with 6 samples.

Results

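The gene-desert peaks were the 2754 ATAC-seq peaks of untreated mouse embryonic stem cells (mESCs) that lay outside every protein-coding gene and more than 100 kb from the nearest curated transcription start site (TSS). They were taken from 1 deposited list of 41014 peaks, of which 40228 lay on chromosomes 1 to 19. A peak was a member when it touched no protein-coding gene span of the RefSeq annotation of GRCm38, the assembly that mm10 names, and when its nearest edge was over 100 kb from each of 30177 curated TSS positions (transcripts with NM_ or NR_ accession prefixes). The choice used positions only and not the score of a peak. The 2754 members were 6.85% of the autosomal peaks. The other peaks fell into 10531 intergenic peaks at 10 to 100 kb from a TSS, 12131 intragenic peaks more than 10 kb from a TSS, 8646 peaks at 1 to 10 kb and 6166 promoter peaks within 1 kb.

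The study asked how ZBTB21, a zinc finger transcription factor, contributes to the binding of cohesin and to chromatin interactions. ATAC-seq, an assay in which Tn5 inserts sequencing adapters into accessible chromatin, was performed in V6.5 mESCs, a mouse ES cell line, without treatment in 2 replicates, and in ZBTB21-degron mESCs at 0 h and 6 h of IAA, the auxin that triggers degradation of the tagged protein, in 4 samples that were not analysed here. The labels describe V6.5 cells grown with irradiated mouse embryonic fibroblasts, serum and LIF, whereas the methods of the study also list small-molecule kinase inhibitors in the medium. The treatment text of the untreated samples describes doxycycline given to degron cells, and whether any of it applies to the untreated cells was not settled by the labels. The list pools both replicates and gives 1 score per peak, so neither a spread between replicates nor a sequencing depth could be given and no test over samples was possible. The comparisons were therefore descriptions. Their 95% intervals cover counting error only, treat each region as independent and say nothing about the variation between cultures.

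Gene deserts are long stretches of DNA without protein-coding genes. They often flank genes for developmental regulators or for neuronal adhesion proteins, and known enhancers in them act on promoters over long distances by chromatin looping. An open site far from any promoter may be an enhancer, a site of CTCF, the zinc finger protein at which cohesin-driven loops stop, or a repeat at which reads pile up. In ES cells many distal enhancers are bound by the pluripotency factors Oct4, Sox2, Esrrb and Klf4 and, downstream of LIF, by Stat3.

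The cell type label was compared with marker genes. A listed peak lay within 1 kb of a TSS for 4 of 8 mESC markers (Pou5f1, Nanog, Zfp42 and Dppa5a) and for 2 of 9 markers of fibroblasts (Thy1 and Vim). The remaining fibroblast markers, Col1a1, Col1a2, Col3a1, Twist1, Twist2, Prrx1 and Fn1, had none. The nearest peak was more than 10 kb from the TSS of Sox2, 11.6 kb from that of Esrrb and 31.1 kb from that of Klf4, although these genes define mESCs. In all, 5753 of 20021 protein-coding genes on chromosomes 1 to 19 (28.7%) had a listed peak within 1 kb. A site that is not listed is therefore not shown to be closed.

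The sequence in the middle of 8 members is shown to give the range of what the gene-desert peaks contain. Each is the 300 bp window around the peak midpoint in GRCm38, read 5′ to 3′ on the + strand. Capitals mark matches, on either strand, to the 12 motifs that were searched. The first is the member with the highest score of all (953), at chr13:84348125-84348424, 126 kb downstream of Tmem161b. Its window held the octamer ATGCAAAT, the site of Oct4 and other POU factors, at base 34 and the CCAAT site of NF-Y at base 16. The second, at chr8:90670703-90671002 between Tox3 and Chd9, had the highest score (891) among members with the core of the composite Oct4-Sox2 site. The third, at chr6:51857805-51858104, 154 kb from Skap2, had the highest score (853) among members with a CTCF match, lay inside the VISTA element mm412, which was active in the neural tube, and also held the E-box CACGTG.
Highest score, near Tmem161b: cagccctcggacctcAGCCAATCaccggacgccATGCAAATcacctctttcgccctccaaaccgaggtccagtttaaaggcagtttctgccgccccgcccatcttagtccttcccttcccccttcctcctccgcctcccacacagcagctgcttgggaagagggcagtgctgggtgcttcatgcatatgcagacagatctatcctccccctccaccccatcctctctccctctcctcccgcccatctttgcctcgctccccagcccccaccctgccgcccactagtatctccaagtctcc
Oct4-Sox2 core, between Tox3 and Chd9: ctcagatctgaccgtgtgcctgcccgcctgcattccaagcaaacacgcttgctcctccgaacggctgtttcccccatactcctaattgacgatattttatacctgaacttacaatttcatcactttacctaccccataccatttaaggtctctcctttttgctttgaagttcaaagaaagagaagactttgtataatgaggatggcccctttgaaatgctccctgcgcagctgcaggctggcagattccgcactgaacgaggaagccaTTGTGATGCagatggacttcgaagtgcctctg
CTCF, near Skap2: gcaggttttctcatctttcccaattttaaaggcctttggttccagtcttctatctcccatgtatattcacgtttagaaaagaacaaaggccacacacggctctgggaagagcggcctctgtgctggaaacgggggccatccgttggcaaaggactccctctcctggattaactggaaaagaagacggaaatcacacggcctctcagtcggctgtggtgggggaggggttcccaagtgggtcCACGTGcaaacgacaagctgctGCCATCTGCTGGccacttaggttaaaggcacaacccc

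A further pair of members also lay in sequences that RefSeq lists as enhancers from reporter experiments. The window at chr5:118436787-118437086, 123 kb upstream of Med13l, which encodes a subunit of the Mediator kinase module, belongs to a fragment that activated a Pou5f1 promoter in mouse ES cells. The window at chr12:109948455-109948754, in the imprinted region between Rtl1 and Dio3, belongs to the VISTA element mm1456, which was active in the neural tube and brain of mouse embryos. Neither window held a match to the 12 motifs.
ES cell reporter enhancer, upstream of Med13l: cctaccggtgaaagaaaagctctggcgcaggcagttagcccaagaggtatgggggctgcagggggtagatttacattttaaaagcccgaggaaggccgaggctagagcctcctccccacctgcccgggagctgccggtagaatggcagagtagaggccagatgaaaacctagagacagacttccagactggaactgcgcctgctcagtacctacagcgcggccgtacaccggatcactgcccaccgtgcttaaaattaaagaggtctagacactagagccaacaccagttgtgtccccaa
VISTA enhancer mm1456, between Rtl1 and Dio3: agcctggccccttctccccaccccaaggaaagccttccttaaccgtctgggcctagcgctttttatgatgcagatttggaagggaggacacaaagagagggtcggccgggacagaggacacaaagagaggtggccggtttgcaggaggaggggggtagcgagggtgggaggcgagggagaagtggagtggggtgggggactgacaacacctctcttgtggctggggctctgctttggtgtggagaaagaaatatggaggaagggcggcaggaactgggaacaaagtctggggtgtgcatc

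The last 3 windows show the extremes of width and distance and a repeat. The widest member (1816 bp) was at chr13:110019239-110019538, 115 kb from Mir1904. The member farthest from a TSS, at 1823 kb, was at chr10:47631167-47631466. Of the latter peak's 404 bp, 79.95% were masked as repeats. The member with the highest score (864) among those nearest to a pluripotency gene was at chr1:137323670-137323969, 363 kb from Nr5a2. Its window held a tandem repeat, as 84.2% of the bases equalled the base 15 positions before. The peak was 1157 bp wide with 8.21% of its bases masked, and the tandem repeat was read in the window only.
Widest, near Mir1904: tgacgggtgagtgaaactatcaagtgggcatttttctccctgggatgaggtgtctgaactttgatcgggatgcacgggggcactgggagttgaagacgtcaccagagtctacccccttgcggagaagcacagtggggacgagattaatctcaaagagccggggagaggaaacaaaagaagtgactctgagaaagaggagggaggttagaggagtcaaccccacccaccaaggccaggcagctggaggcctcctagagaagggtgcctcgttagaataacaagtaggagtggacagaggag
Farthest from a TSS, between Hace1 and Grik2: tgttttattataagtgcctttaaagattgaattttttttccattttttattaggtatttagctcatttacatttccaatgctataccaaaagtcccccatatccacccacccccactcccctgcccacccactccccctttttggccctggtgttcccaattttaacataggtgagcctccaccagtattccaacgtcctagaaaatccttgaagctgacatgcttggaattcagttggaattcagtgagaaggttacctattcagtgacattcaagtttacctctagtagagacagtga
Tandem repeat, near Nr5a2: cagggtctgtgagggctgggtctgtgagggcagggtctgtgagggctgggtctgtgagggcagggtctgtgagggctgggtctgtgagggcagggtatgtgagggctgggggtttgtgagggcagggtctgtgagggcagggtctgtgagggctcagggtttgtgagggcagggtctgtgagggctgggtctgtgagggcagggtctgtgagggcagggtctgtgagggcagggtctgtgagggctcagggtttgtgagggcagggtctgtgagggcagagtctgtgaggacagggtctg

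The gene-desert peaks were sparse. The territory that met the rule covered 623 Mb without gaps, or 26.0% of the sequenced bases of the 19 autosomes, so that 26.0% of the sequence held 6.85% of the peaks. The density was 4.42 peaks per Mb (95% Poisson interval 4.25 to 4.59). It was 17.6 per Mb (17.2 to 17.9) for intergenic peaks at 10 to 100 kb, 3.98 times as high, and 16.1 per Mb (15.9 to 16.4) for intragenic peaks beyond 10 kb. At promoters it was 119.8 per Mb, 27.1 times the desert density.

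From 10 kb on, the density fell with the distance to the TSS and did not break at the limit of 100 kb. Outside protein-coding genes, it was 23.8 peaks per Mb at 10 to 20 kb and 12.9 at 50 to 80 kb. Just outside the limit, at 80 to 100 kb, 731 peaks lay at 10.4 per Mb (9.67 to 11.2), with a median width of 524 bp and a median score of 676. Just inside, at 100 to 120 kb, 510 members lay at 8.75 per Mb (8.01 to 9.54), with a median width of 510.5 bp and a median score of 693. The fall went on within the deserts, to 4.60 per Mb at 200 to 300 kb, 2.16 at 500 to 1000 kb and 1.49 (1.13 to 1.94) beyond 1000 kb, where 57 members remained. The median distance of the members was 186 kb (quartiles 129 and 302 kb). More than 500 kb from a TSS lay 309 members (11.2%). They lay about equally on both sides of the nearest gene, 1436 downstream of its TSS and 1318 upstream.

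**Figure D1:**
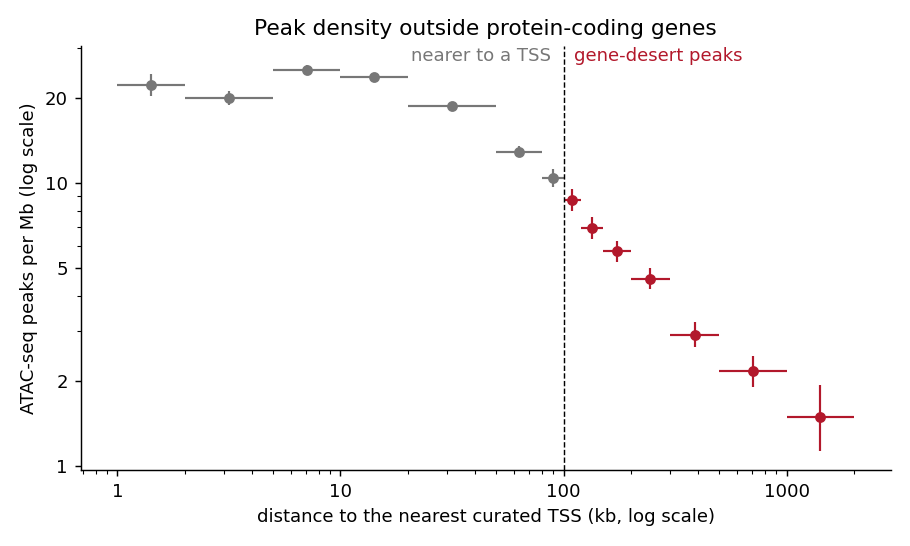
ATAC-seq peaks per Mb of sequence outside protein-coding genes (vertical axis, log scale) by distance to the nearest curated TSS (horizontal axis, kb, log scale), with 95% Poisson intervals as vertical bars and the width of each distance bin as horizontal bars. Gene-desert peaks (red) continue the fall seen nearer to TSSs (grey), from 8.75 per Mb at 100 to 120 kb to 1.49 per Mb beyond 1000 kb.

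The desert density was below that of intergenic peaks on each of 19 chromosomes. It ranged from 2.90 peaks per Mb on chromosome 3 to 6.38 on chromosome 9, while intergenic peaks ranged from 13.3 to 28.7 per Mb. The ranges of the classes did not overlap. The chromosomes did not follow one order in both classes, since chromosome 13 had 6.28 desert peaks per Mb with 16.7 intergenic ones, whereas chromosome 12 had 3.22 with 17.4. The members made up 10.2% of the peaks of chromosome 13, and 3.88% of those of chromosome 7.

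**Figure D2:**
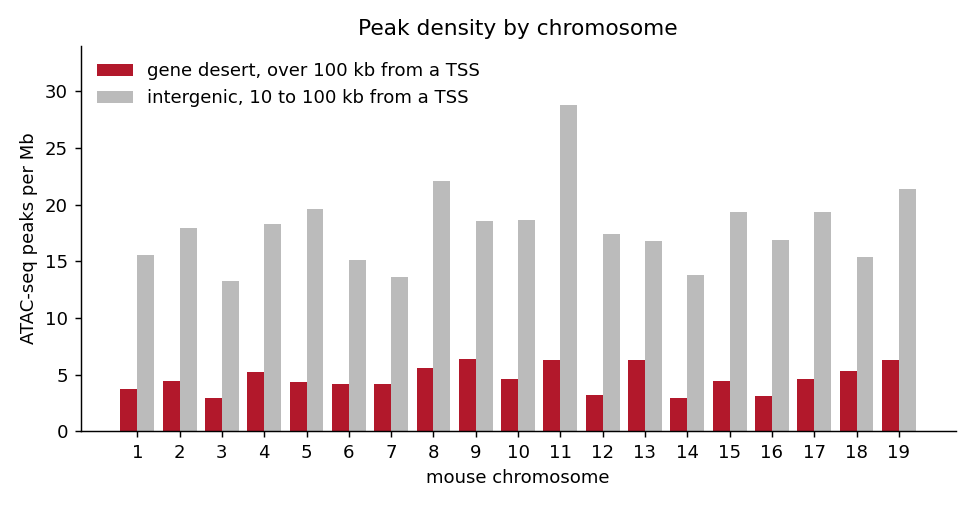
ATAC-seq peaks per Mb (vertical axis, from 0) on each autosome (horizontal axis) for gene-desert peaks (red bars) and for intergenic peaks at 10 to 100 kb from a TSS (grey bars), 1 value per chromosome. Every red bar is lower than the grey bar beside it, with 2.90 to 6.38 against 13.3 to 28.7 peaks per Mb.

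Single gene-desert peaks differed little from other distal peaks in width and score. The score is a whole number that the authors deposited with each peak, between 540 and 953 in the list, and a higher score is read here as a more reproducible peak. The median width of the members was 500.5 bp (quartiles 388 and 641), against 529 bp for intergenic, 517 bp for intragenic and 747 bp for promoter peaks. Their median score was 681.5 (quartiles 613 and 754), against 693, 687 and 740. The median width of the members was below that of intergenic peaks on 19 of 19 chromosomes and the median score on 15, with quartiles that overlapped broadly. Scores of 800 or more were carried by 294 members (10.7%, 95% Wilson interval 9.58 to 11.9), by 12.2% of intergenic and by 32.7% of promoter peaks. Within the deserts the median width was 510.5 bp at 100 to 120 kb and 458 bp beyond 1000 kb, while the median score moved between 674 and 693.

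In base composition the members were the farthest from promoters. Their median GC content was 49.8% (quartiles 47.4 and 52.5), in a territory of 39.2% GC, against 51.2% in intergenic and 58.8% in promoter peaks. CpG dinucleotides were at 0.187 of the number that the C and G content gives, against 0.227 in intergenic and 0.653 in promoter peaks. Both medians were lower than those of intergenic peaks on 19 of 19 chromosomes. Only 24 members (0.871%, 0.586 to 1.29) had the composition of a CpG island, taken as over 50% GC with an observed to expected ratio above 0.6. It was also rare in intergenic (1.32%, 1.12 to 1.56) and intragenic peaks (1.07%, 0.903 to 1.27). The members had the lowest share, with an interval that overlapped both of these. Of promoter peaks, 56.8% had it. The median GC content fell with distance too, from 50.7% at 100 to 120 kb to 48.2% beyond 1000 kb.

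**Figure D3:**
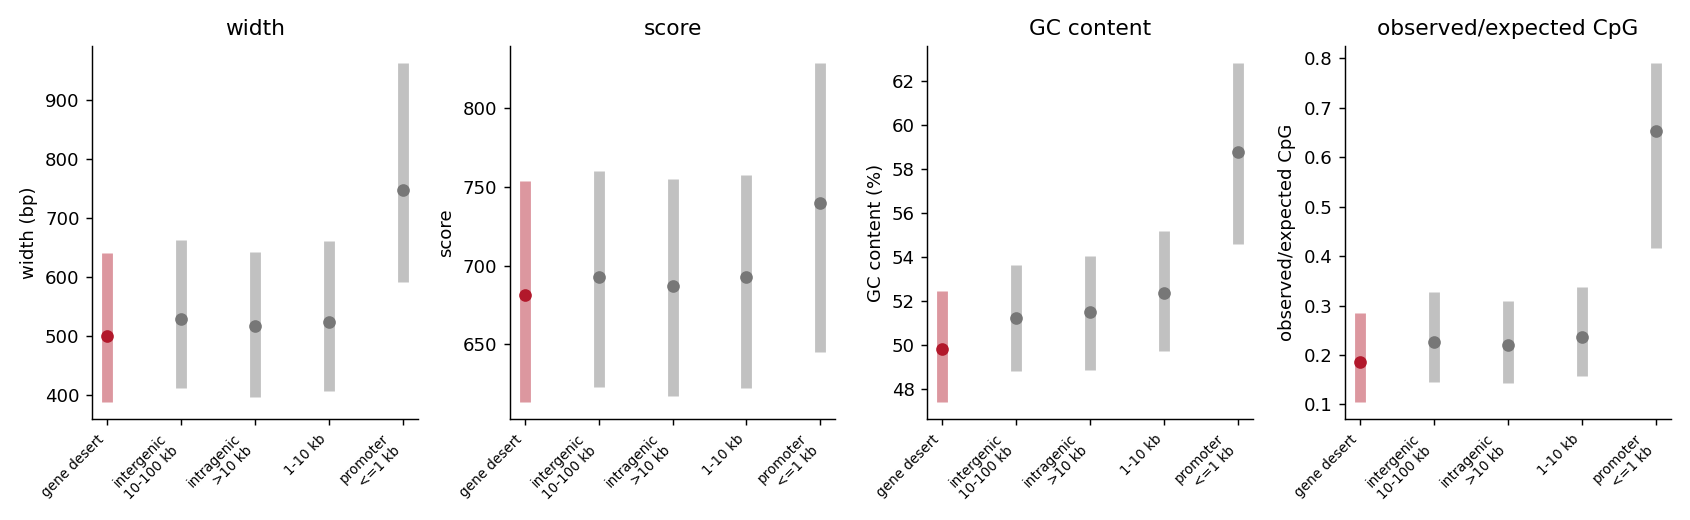
Median (point) and quartiles (bar) of peak width in bp, score, GC content in percent and observed to expected CpG ratio for gene-desert peaks (red, 2754 peaks) and 4 other classes of peaks (grey). The red points are the lowest of each panel, by a small margin for width (500.5 bp) and score (681.5), and the promoter medians are the highest in all 4 panels.

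The members with the highest scores were spread over many loci. After the member near Tmem161b with 953, the next scores were 930 between Eipr1 and Myt1l, a neuronal zinc finger factor, 929 in the VISTA element between Rtl1 and Dio3, and 922 between Cpeb2, an mRNA-binding regulator of translation, and C1qtnf7. In total 7 members (0.254%) scored 900 or more, against 28 intergenic peaks (0.266%) and 517 promoter peaks (8.38%). The fifth member, with 906 at chr6:3182689-3183533, covered a predicted TSS (LOC115490388) and lay within 500 kb of the first sequenced base of its chromosome, as did 6 members in all. The tenth score, 890, was 307 kb downstream of Ajap1, which encodes an adherens junction protein.

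The 10 widest members ranged from 1373 to 1816 bp. A member of 1774 bp with a score of 674 lay between Irx3 and Irx5, homeobox genes of the nervous system and heart. One of 1604 bp with a score of 783 lay 171 kb downstream of Efnb2, an ephrin of vessels and nerves, in the VISTA element mm985, which was active in the midbrain. One of 1652 bp with a score of 843 lay between Rpl14, at 119 kb, and Ctnnb1, which encodes β-catenin, at 241 kb. The scores of the 10 widest ranged from 548 to 843. As these were chosen by width, they do not show how width and score relate. Members with scores above 696 had a median width of 568 bp, against 500.5 bp for all members. Only 62 members (2.25%) were 1000 bp wide or more, against 3.74% of intergenic and 21.8% of promoter peaks.

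The 10 members farthest from a TSS were at 1529 to 1823 kb. They lay in deserts between Hace1 and Grik2, a kainate receptor subunit, between Cntnap5b and Cdh20, between Stim2 and Pcdh7, between Pcdh20 and Pcdh9, between Dsel and Cntnap5a, and between Lrrc4c and Iftap. Lrrc4c encodes a synaptic adhesion protein. The scores of these members ranged from 542 to 811. The highest of them, 811 at chr14:91655922-91656615, was 1529 kb from a TSS.

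The territory fell into 1995 continuous stretches with a median length of 134 kb, and 1001 of these (50.2%) held no listed peak. Among the 376 stretches of 500 kb or longer, 69 (18.4%) were empty and the median density was 2.08 members per Mb (quartiles 0.887 and 4.07). The longest, 3889 kb between Lrrc4c and Iftap, held 3 members. The next, 3875 kb from Olfm4 to Pcdh17, held 1. The largest stretch without any was 1866 kb between Serpinb8 and Cdh7. By contrast, 3186 kb between Hace1 and Grik2 held 12 members, with scores up to 825.

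Other deserts were densely filled. The stretch between Auts2, a neurodevelopmental gene, and Castor2 held 21 members in 1356 kb, the most of all, with scores up to 809. Between Tle3, a Groucho corepressor, and Rplp1, 18 members lay in 342 kb, or 52.6 per Mb. Between Adgrd1 and Sfswap, 13 lay in 197 kb, or 66.1 per Mb, with scores up to 859. The stretch from Prok2 to Rybp, a Polycomb component, held 13 in 361 kb. These stretches were chosen for their number of members, and their densities, from 15.5 per Mb beside Auts2 upward, stand beside the 4.42 per Mb of all deserts.

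Most members stood alone. When neighbouring members were joined into groups at a distance often used to stitch enhancers, given with the processing, 1888 (68.6%) had no partner, 288 pairs and 60 groups of 3 were formed, and 24 groups of 4 or more held 110 members (3.99%). The median distance to the nearest listed peak of any class was 27939.5 bp, against 9225 bp for intergenic peaks, and 1060 members (38.5%) had no other peak within 50 kb, against 9.66%. The largest groups had 6 members each. One spanned 40.8 kb between Slc22a12, a urate transporter, and Rps6ka4, with a median score of 738.5. Another spanned 35.7 kb between Cyp26a1, which degrades retinoic acid, and Myof, with scores up to 887. The third spanned 42.6 kb in front of Hs6st1, a heparan sulfate sulfotransferase. Groups of 5 lay beside Foxo1, Zfp462, Irx3 and Tfcp2l1, among others.

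The 2754 members had 1277 different genes as their nearest, 636 of which were nearest to only 1. The lncRNA Gm27239 led with 14 members, followed by Ajap1 and the lncRNA Gm40962 with 13 each and by Auts2 and Plpp3, a lipid phosphate phosphatase, with 12 each. The Ajap1 members had a median score of 760 and lay on both sides, 6 upstream and 7 downstream. All 12 Auts2 members were upstream of it, at 109 to 777 kb, with a median score of 618. The scores of the Ajap1 members, from 580 to 890, overlapped those of the Auts2 members, from 543 to 707. Map3k7, the TAK1 kinase of TGFβ and NF-κB signalling, and 1810013L24Rik had 11 each.

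The nearest protein-coding gene was then read for 4 gene lists, beside the share of the desert sequence that has the same genes as its nearest. For 32 autosomal pluripotency genes, 36 members were counted (1.31%, 95% Wilson interval 0.946 to 1.80), in 0.428% of the sequence. Among intergenic peaks at 10 to 100 kb, 130 (1.23%) had these genes as their nearest, a share close to that of the members. The density there was 13.5 per Mb. As density depends on distance to the TSS, a number was also computed from the density of all members in the same distance bins. It gave 13.3 members for the pluripotency genes, so that the observed number was 2.72 times this value (95% Poisson interval 1.90 to 3.76), and 27 members were left without the leading gene. Developmental transcription factor genes had 163 members beside 122 from distance (1.34 times, 1.14 to 1.56), and 146 were left without the leading gene. These genes were nearest to 5.92% of the members, in 4.08% of the sequence, and to 3.47% of intergenic peaks. Neuronal adhesion and synaptic genes had 196 members beside 295 (0.664 times, 0.574 to 0.763). They were nearest to 7.12% of the members, in 14.1% of the sequence, and to 1.47% of intergenic peaks. Secreted signal genes had 20 beside 21.3 (0.940 times, 0.574 to 1.45). Members near one gene share a locus and are not independent, which these intervals do not take into account.

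The 36 members near pluripotency genes belonged to 10 genes. Nr5a2, an orphan nuclear receptor that can stand in for Oct4 in reprogramming, had 9, at 114 to 430 kb, with scores from 558 to 864. The highest of these was the member with the tandem repeat window shown above. Dusp6, a phosphatase in ERK signalling, Tfcp2l1, a naive pluripotency factor, and Myc had 5 each. The Tfcp2l1 members formed 1 group at 121 to 149 kb with scores of 671, 556, 603, 797 and 595. The Myc members lay at 343 to 708 kb downstream in the gene-poor region beside Myc, with widths of only 253 to 335 bp. Sox2 had 3 members, at 378, 434 and 499 kb, with scores of 788, 806 and 661. Tbx3 had 4, Klf4 2, and Zfp42, Mycn and Esrrb 1 each. The Zfp42 member, with a score of 801, lay at 100.2 kb, at the edge of the rule.

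Among the other lists the leading genes were few. Sall3, a zinc finger gene, had 17 members with scores from 565 to 851, and Irx3 had 8 from 653 to 815. The stretch between Sall3 and Galr1 held 18 members, and its most frequent nearest gene was the lncRNA Gm27239 named above. The counts of Sall3 and Gm27239 are therefore not from separate loci. Sox9 and Nr2f2 had 7 each. Of the adhesion and synaptic genes, Pcdh9 had 9, the farthest at 2645 kb from the protein-coding TSS, and Csmd3, Ncam1 and Cdh8 had 7 each. Cdh8 had them in 2.84 Mb of sequence, and Ncam1 in 0.234 Mb. Bmp7 and Inhba led the secreted signals with 4 each.

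VISTA enhancers were covered about as often in deserts as elsewhere. Of 77 VISTA elements in the deserts, which are sequences tested in transgenic mouse embryos, 16 held a listed peak (20.8%, 95% Wilson interval 13.2 to 31.1). Of 540 VISTA elements elsewhere, 121 did (22.4%, 19.1 to 26.1). Of the other enhancers in RefSeq, 3 of 19 in deserts (15.8%, 5.52 to 37.6) and 37 of 374 elsewhere (9.89%, 7.26 to 13.3) held a peak, and all 3 were Med13l fragments. By tissue, without a test, the counts were as follows. Of 37 desert elements active in the forebrain, midbrain, hindbrain or neural tube, 14 held a member, and of the other 40 elements 2 did. Among 25 elements active in limbs 5 held a member, and among the other 52 elements 11 did. Among 13 active in the heart 1 did, and among the other 64 elements 15 did. An element active in several tissues was counted for each. All members in listed enhancers numbered 19, with a median score of 687 and a range from 559 to 929, close to the median of 681.5 of all members.

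The genes nearest to these members included Zeb2 and Irx3. One in the element mm1737 (score 770, 318 bp) was 108 kb upstream of Zeb2, a neural crest factor. One in mm1651 (score 744, 689 bp) was 165 kb from Irx3, and one in mm1334 (score 641) was 406 kb from Ccnh. In mm996, active in the neural tube and in the midbrain and hindbrain, a member of 948 bp with a score of 559 lay 260 kb from Gm6639. The element mm1456 held 2 members, with scores of 663 and 929.

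The Med13l locus held reporter enhancers tested in ES cells themselves. Within 200 kb upstream of the Med13l TSS, 8 members lay between 111 and 186 kb, with scores of 591, 561, 785, 649, 781, 687, 891 and 852 from the farthest to the nearest. The members at 125 and 123 kb, with scores of 687 and 891 and widths of 1073 and 1210 bp, overlapped 3 of 4 fragments that activated a Pou5f1 promoter in mouse ES cells. The fourth fragment, 114.5 to 116.6 kb upstream, held no listed peak. A further 8 peaks lay between 43.5 and 82.6 kb upstream, with scores from 639 to 857. No peak was listed at the Med13l TSS, and the nearest was 8.30 kb inside the gene.

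**Figure D4:**
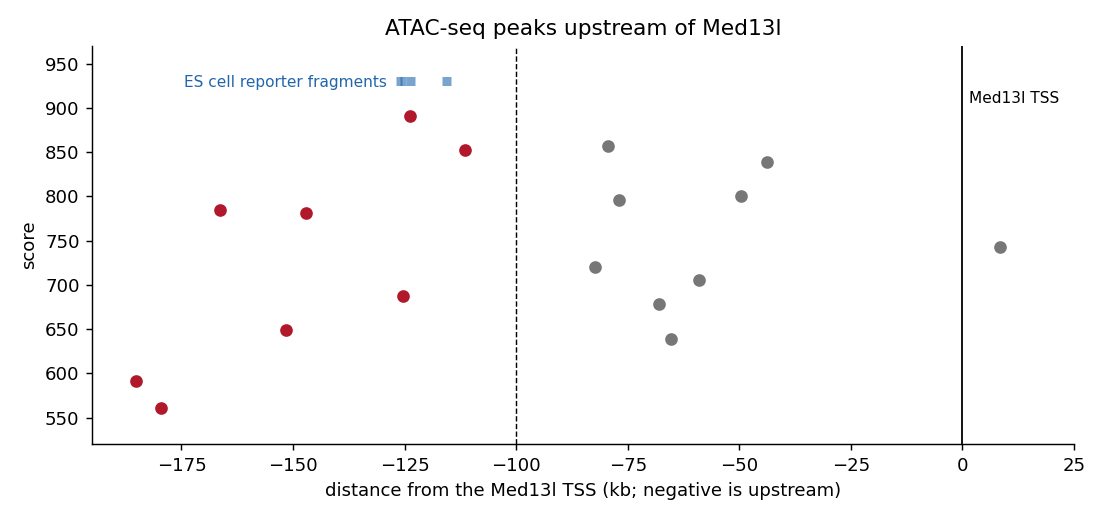
Score (vertical axis, starting at 520) of each ATAC-seq peak against its distance from the Med13l TSS in kb (horizontal axis, negative values upstream), with gene-desert peaks in red, other peaks in grey, the 100 kb limit as a dashed line and the 4 fragments with reporter activity in ES cells as blue bars. The member with the highest score in the locus, 891, lies under 1 of these fragments.

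Some members were near noncoding or predicted transcripts, which the rule allowed in part. Spans of lncRNA genes held 401 members (14.6%, 13.3 to 15.9), while these spans made up 7.81% of the desert sequence. Of intergenic peaks, 1999 (18.98%) lay in such spans, a larger share than of the members. Pseudogene spans held 36 members (1.31%) and 1.00% of the sequence. Within 1 kb of a TSS that RefSeq only predicts lay 88 members (3.20%), against 563 intergenic peaks (5.35%). These 88 had a median width of 541.5 bp, a score of 698.5 and a GC content of 51.5%, against 499 bp, 681 and 49.8% for the remaining 2666. CpG-island composition was found in 5 of the 88 and in 19 of the 2666. With predicted transcripts counted as TSSs, 1061 members would remain.

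Peaks mostly in masked repeats were more frequent among the members than in the other classes. Over 50% of the bases were masked as repeats in 460 members (16.7%, 15.4 to 18.1), against 11.5% of intergenic, 8.16% of intragenic and 1.12% of promoter peaks. The sequence of the deserts was 39.5% masked and that of the intergenic class 37.5%. The median masked share of a member, 14.1%, was close to the 13.9% of intergenic peaks, and it was the lower of both on 10 of 19 chromosomes. Tandem repeats, with at least 70% of the bases in the window equal to the base 5 to 60 positions before, were found in 19 members (0.690%, 0.442 to 1.08), 47 intergenic peaks (0.446%) and 75 intragenic peaks (0.618%, within the interval of the members). How far reads were misplaced between copies of a repeat was not tested.

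Motifs were searched on both strands in 300 bp windows around the midpoints of all peaks and in 5423 windows of the same length 5 kb from the members. The flanking windows had a median GC content of 41.7%, against 50.3% in the windows of the members. Shares in the flanks are therefore not at like base composition. A CTCF match, by a 12-letter consensus, was found in 70 members (2.54%, 2.02 to 3.20), against 5.44% of intergenic, 5.61% of intragenic and 4.82% of all autosomal peaks. In the flanking windows it was found in 4 (0.0738%). The share of CTCF matches in the members was lower than in intergenic peaks on 19 of 19 chromosomes. It fell with distance, from 5.76% at 10 to 50 kb to 3.80% at 100 to 150 kb, 2.46% at 150 to 300 kb and 0.865% (0.397 to 1.87) beyond 300 kb. The GC content of the peaks fell with distance as well, and its part in the CTCF share was not tested. In windows of 50 to 55% GC the share was 3.69% (2.73 to 4.96) in the members and 6.05% (5.41 to 6.76) in intergenic peaks, and in windows of 45 to 50% GC 1.77% and 4.98%. Members with a CTCF match were narrower, with a median width of 440 bp against 501.5 bp, and had a median score of 660 against 682.

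The octamer ATGCAAAT went the other way. It was found in 141 members (5.12%, 4.36 to 6.01) and in 3.15% of intergenic peaks. Of all autosomal peaks 2.84% had it, and of the flanking windows 2.78%. The members' share was higher than that of intergenic peaks on 17 of 19 chromosomes. By distance, the octamer share was 2.78% at 10 to 50 kb and 4.31% (3.59 to 5.16) at 50 to 100 kb. The interval at 50 to 100 kb overlapped that of all members. At 100 to 150 kb, inside the deserts, the share was lower than at 50 to 100 kb, with an interval of 2.86 to 5.28. It did not step up at the limit of 100 kb, and reached 6.77% beyond 300 kb. At like base composition, the intervals were apart only in windows of 45 to 50% GC. There the share was 6.87% (5.43 to 8.64) in the members and 4.53% (3.83 to 5.35) in intergenic peaks. The intervals overlapped below 45% GC, with 7.22% (4.72 to 10.9) and 6.09% (4.39 to 8.39). They also overlapped at 50 to 55% GC, with 4.23% (3.19 to 5.58) and 2.79% (2.36 to 3.30), and above 55% GC, with 1.98% and 1.47%. The core of the Oct4-Sox2 site (TTGTNATGC) was found in 76 members (2.76%, 2.21 to 3.44), against 1.60% of intergenic, 1.89% of intragenic, 1.53% of all peaks and 0.682% of flanking windows. By base composition, the intervals of members and intergenic peaks were apart only in windows of 45 to 50% GC, with 4.16% (3.07 to 5.62) and 2.11% (1.65 to 2.70). Below 45% GC the members' share was the lower one, with 4.69% and 5.20%, and at 50 to 55% GC the shares were 1.80% and 1.39%. Members with this core had a median score of 710 against 681, and 14 of the 76 (18.4%) scored 800 or more, against 10.5% of those without. Members with an Esrrb match had a median of 707.5, with 7 of 44 (15.9%) at 800 or more. Members with the octamer had a median of 676 against 682, with 22 of 141 (15.6%) at 800 or more. With a Stat3 match, 4 of 48 (8.33%) scored 800 or more, against 10.7% of those without. These counts are small and have no intervals. They were not read in other classes of peaks, so no link of motif and score is shown for the members.

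The Klf site (GGGNGTGGC) was found in 6.50% of the members and 8.42% of intergenic peaks, beside 1.03% of flanking windows, with intervals of 5.64 to 7.48 and 7.91 to 8.97. By base composition the intervals overlapped in each GC range, with the members' share the lower one throughout. The shares were 2.17% and 4.66% below 45% GC, and 5.93% and 7.23% at 45 to 50% GC. They were 7.37% (5.98 to 9.06) and 9.22% (8.43 to 10.1) at 50 to 55% GC. Above 55% GC they were 8.42% and 9.18%. AP-1 (TGANTCA) was found in 13.7% of the members and 12.7% of intergenic peaks, beside 9.61% of flanking windows. Esrrb (TCAAGGTCA) matched in 1.60% and 1.56%, and Stat3 (TTCCNGGAA) in 1.74% and 1.61%, with intervals that overlapped. The sites of promoter factors were rare in the members. Ets (CCGGAAGT) was found in 0.472%, Nrf1 (GCGCATGCG) in 0.0726% and YY1 (AAGATGGCG) in 0.545%, against 7.04%, 1.99% and 2.74% of promoter peaks. In intergenic peaks the shares were 1.05%, 0.190% and 0.456%, and the intervals of the members and of intergenic peaks overlapped for Nrf1 and YY1 and did not for Ets. The NF-Y site (AGCCAATC) was found in 2.18% of the members, 2.03% of intergenic and 2.36% of all autosomal peaks. For the E-box these shares were 3.89% (3.23 to 4.67), 4.84% (4.45 to 5.27) and 5.55%. For both sites the intervals of members and intergenic peaks overlapped. An octamer, Oct4-Sox2 core, Esrrb, Klf or Stat3 match was present in 459 members (16.7%), of which 4 also had a CTCF match. None of the 12 motifs was found in 1775 members (64.5%). These combined counts are given for the members only and do not set them apart from other peaks. The motifs are short and fixed in their letters, and a match is not shown to be bound.

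**Figure D5:**
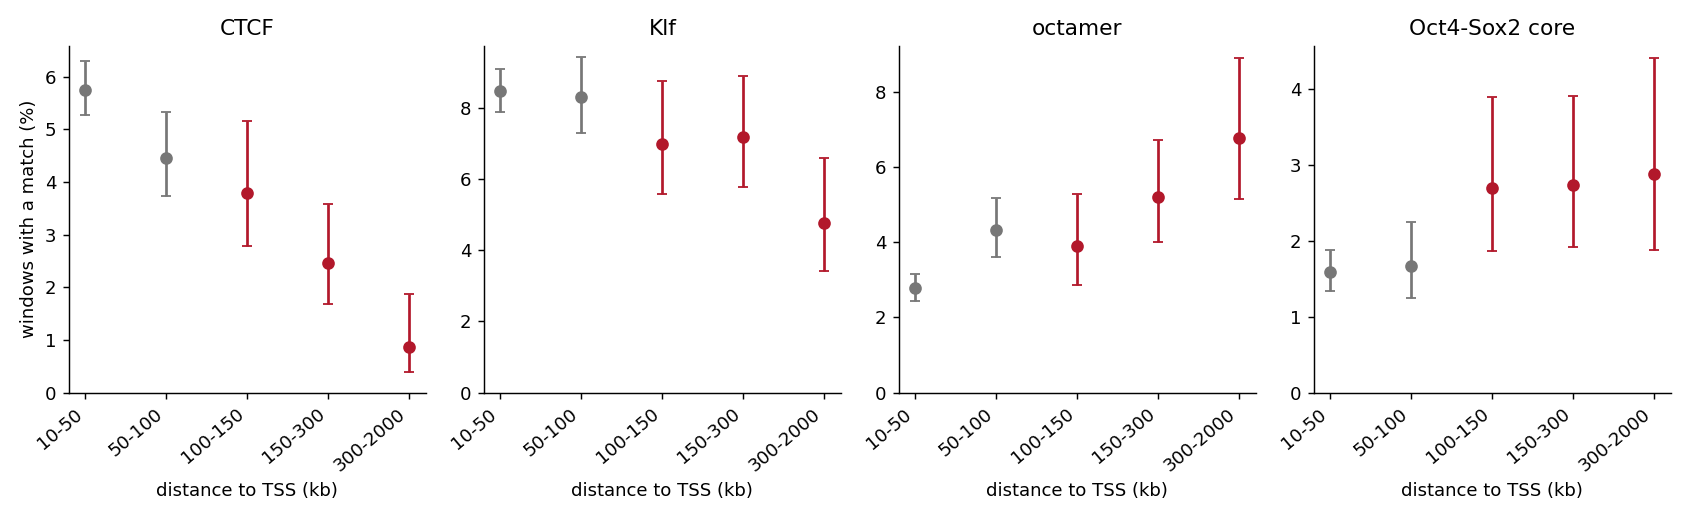
Percent of 300 bp windows with a match to the CTCF, Klf, octamer and Oct4-Sox2 core motifs (vertical axes, from 0) by distance of the peak to the nearest curated TSS in kb (horizontal axes), outside protein-coding genes, with 95% Wilson intervals, for gene-desert peaks in red and peaks nearer to a TSS in grey. The CTCF share falls from 5.76% at 10 to 50 kb to 0.865% beyond 300 kb. The octamer share is 2.78% at 10 to 50 kb, 4.31% at 50 to 100 kb and 6.77% beyond 300 kb. It is lower at 100 to 150 kb than at 50 to 100 kb.

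The study sorted long chromatin loops into ZBTB21-responsive and less-responsive ones. Spans of the 500 autosomal responsive loops held 425 members, 5.35% (4.88 to 5.87) of the 7937 peaks there, and those of 438 autosomal less-responsive loops held 328, or 32.8% (30.0 to 35.8) of 999. Desert sequence made up 12.02% of the former spans and 43.3% of the latter. In that sequence the density was 12.48 members per Mb in responsive and 2.65 per Mb in less-responsive loops, beside 4.42 per Mb in all deserts. The median widths were 533 and 481.5 bp and the median scores 687 and 675.5. Since the loops were ranked by signals at the ATAC-seq peaks inside them, the density of peaks was not independent of the loop classes.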

How the data were processed

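ATAC-seq was analysed in 2 untreated V6.5 mESC samples, as named by their labels. The authors deposited 1 list of peaks in mm10 with a score for each peak and a strand for 0 peaks. The submitters' processing notes name cutadapt 2.6, Bowtie2 2.3.5.1 and MACS2 2.1.1. The steps of ATAC-seq peak calling, filters on repeats and the Tn5 shift are not given in the sources used here. The smallest deposited score, 540, equals the scaled score of an irreproducible discovery rate (IDR) of 0.05, the threshold the study gives for its ChIP-seq, so that the values alone led to reading it as a scaled IDR. Depth per sample is unknown.

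The members, gene lists, motifs and alternatives were chosen with earlier results of these data known. Peaks were classified against RefSeq on GRCm38.p6. Sequences and soft-masked repeats were read from that assembly, and densities used its bases other than N. Distance bins and gene-list shares of the territory were counted on a grid of 100 bp. Peaks spanning a class border were placed by their nearest edge. The named members were the 10 with the highest score, the 10 widest and the 10 farthest. The named loci were the 10 longest stretches and the 10 with most members, the 10 groups (joined within 12.5 kb) with most members, and the 10 genes nearest to most members, of which the text gives a part. VISTA and reporter enhancers, loops and the longest empty stretches were taken up after the values were seen. Loop spans came from the supplement of the study, from outer edge to outer edge. A truncated supplementary sheet of ZBTB21 peaks was not used. Shares have Wilson and densities exact Poisson 95% intervals. The classification was tested on 20 simulated chromosomes, where 0 of 6000 peaks differed from a direct count. The tools were Python 3.11.15, pandas 2.3.3, numpy 2.4.6, scipy 1.17.1 and matplotlib 3.10.9. Other distance limits, TSS sets, gene spans, score limits and merging of peaks were also tried. Some named loci are not reported here.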

Additional observations from a re-analysis of the deposited data

How the results depend on the processing

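No paired analysis was possible because the list pools the untreated replicates, and for the same reason no replicate could be left out. The 6 main values were recomputed under 8 alternatives and under 1 chosen after seeing the data, the removal of peaks mostly in masked repeats. Of 54 values, 25 stayed within 1.5 times the number of members or within the 95% interval of the value reported, and the intergenic density was above the desert density in all. With a limit of 50 kb there were 5330 members at 6.37 per Mb, with a median width of 513 bp and 50.4% GC. The density ratio was then 3.23, with intergenic peaks taken at 10 to 50 kb. With a limit of 200 kb there were 1236 members at 3.05 per Mb, with 488 bp and 49.3% GC. The ratio was then 4.82, with intergenic peaks taken at 10 to 200 kb. With protein-coding TSSs only, the density was 5.47, the ratio 3.69, the width 511 bp and GC 50.2%. With predicted transcripts added there were 1061 members at 2.88 per Mb, with a ratio of 4.45, 476 bp, a median score of 675 and 49.0% GC. With spans of all annotated genes excluded the density was 4.11. With scores above 696 there were 1234 members at 1.98 per Mb, with a ratio of 4.30, 568 bp, a score of 762 and 49.5% GC. Without peaks mostly in repeats the density was 3.68 and the ratio 4.22. Limits and TSS sets change which peaks are members and which are in the intergenic class. The score setting raises the median score by construction. The score setting and the removal of repeat peaks take peaks away over the same territory. The falls in number and density under both are therefore also by construction. The cause of the other shifts was not tested. Because depth is unknown, an unlisted site cannot be told from a closed one.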
